A study of Mus musculus with 6 samples.

Results

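The genes studied here are 9 components of signalling by leukemia inhibitory factor (LIF) and interleukin-6: the ligand genes Il6, Lif, Il11 and Clcf1, the receptor genes Il6st, Lifr and Osmr, the transcription factor gene Stat3 and the feedback inhibitor gene Socs3. They were taken as every probe set whose platform annotation names exactly 1 of these genes, which gave 24 of the 45101 probe sets and 9 of the 18193 named genes on the array. Fibroblasts from B6CBAF1/J mouse embryos were being reprogrammed by SOX2 and KLF4 together with OCT4, which was either wild type (O(WT)SK, here WT) or a version labelled 5R (O(5R)SK, here 5R). What 5R stands for and how the factors were delivered are not in the labels, nor is the age of the embryos. RNA was taken on days 3, 5 and 7, with 1 Affymetrix array for each combination and day, so that the 6 arrays hold no replicate of any combination and day. All groups grew in the same embryonic stem cell medium with 15% fetal bovine serum and 1000 U/ml recombinant LIF, so the ligand itself was supplied to every culture. Untreated fibroblasts were not analysed here.

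Cytokines of this family signal through gp130, the shared receptor chain encoded by Il6st, which pairs with a partner such as the LIF receptor or the oncostatin M receptor. The receptors activate JAK kinases, which phosphorylate STAT3, and STAT3 enters the nucleus and switches on target genes that include Socs3, whose product blocks the receptor and its kinases. In mouse embryonic stem cells LIF and STAT3 sustain self-renewal, while in fibroblasts interleukin-6 and LIF are inducible, inflammation-linked secreted factors.

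Values are deposited intensities, and differences are on the scale of log2(intensity + 16), which understates the change of dim genes. A gene with several probe sets is represented in the fit by its brightest. Levels of different probe sets are not compared with each other, because an array intensity also depends on the probes. Every one of the 9 genes passed the filter on low values through its brightest probe set, and 22 of the 24 probe sets passed it.

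Every array had a 2% trimmed mean of 500. Any pair of arrays, which are no replicates of each other, correlated with r from 0.974 to 0.982 in log2 values over all probe sets. Quality values set apart the 5R arrays of day 7, whose brightest probe set read 34285 (at least 40353 elsewhere), and of day 3, where the spiked-in controls dap and thr had 3′ signals 3.09 and 3.78 times their 5′ signals (at most 2.76 and 2.56 elsewhere). Of 16 listed fibroblast markers 15 are on the array, and all 15 lay above the filter intensity of 33.5 on every array, with a summed intensity from 118310 to 156650. Of those 15, 3 fell from day 3 to day 7 and 0 rose. Of 10 endothelial markers 5 passed the filter, among them Tek (418 to 598), while Pecam1 and Cdh5 did not, and the list summed to 781 to 1062. Of 15 epithelial markers 11 were tested, of which 5 rose and 1 fell, with a median of 0.63. Among the 5, Ehf lay below the filter intensity on day 3 (23.5 and 21.7) and passed it through the later days. The epithelial list summed to 3269 to 4461, highest in the 5R day 7 array. Macrophage and leukocyte markers summed to 12442, 7280 and 5487 on days 3, 5 and 7 with WT and to 11951, 6731 and 5114 with 5R. Of 15 such markers tested, 10 fell from day 3 to day 7, with a median log2 difference of -0.96. Among the 10, Marco read 164 and 103 on day 3 and 20.5 and 2.15 on day 7, so it passed the filter through arrays where it was high. Markers of the pluripotent state summed to 790, 1136 and 1610 with WT and to 1208, 1788 and 3520 with 5R. L1td1 alone made up most of each sum (478 on WT day 3, 2119 on 5R day 7). On each array 6 to 11 of the 15 listed lay below the filter intensity. Only 7 were tested, of which 5 rose and 0 fell, with a median of 1.63. Among those 5, Utf1, Fbxo15 and Tfcp2l1 lay below the filter intensity on WT day 3 (7.52, 3.96 and 2.68). Nanog read 4.06 to 16.7 and was not tested. In bulk RNA, fewer cells of a type and less RNA per cell cannot be told apart.

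Between day 3 and day 7, over both combinations, 3 of the 9 genes rose: the ligand gene Il6 (2.83-fold), the feedback inhibitor gene Socs3 (1.92-fold) and the oncostatin M receptor gene Osmr (1.49-fold). None fell, and Stat3 itself stayed within a narrow range of intensities. The test was limma over 12622 genes, with Benjamini-Hochberg adjustment and a threshold of 0.05, in which 6.52% of all genes rose and 3.68% fell (10.2% either way). Comparisons between the 3 days share arrays, and the 2 combinations stood in for replicates of a day. The median log2 difference was 0.40 for the 9 genes and 0.03 for all genes tested, and 7 of the 9 were positive. Both day 7 arrays read above both day 3 arrays for 6 of the 9 genes, a pattern held by 31.5% of all genes. For Il6, Il6st and Osmr every day 5 value also lay between the day 3 and the day 7 values, which held for 9.29% of all genes. Neither step alone passed at these settings: limma called 0 genes between days 3 and 5 (2041 at an unadjusted p under 0.05, Il6 among them) and 0 between days 5 and 7 (1745, among them Lif, Osmr and Socs3).

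**Figure D1:**
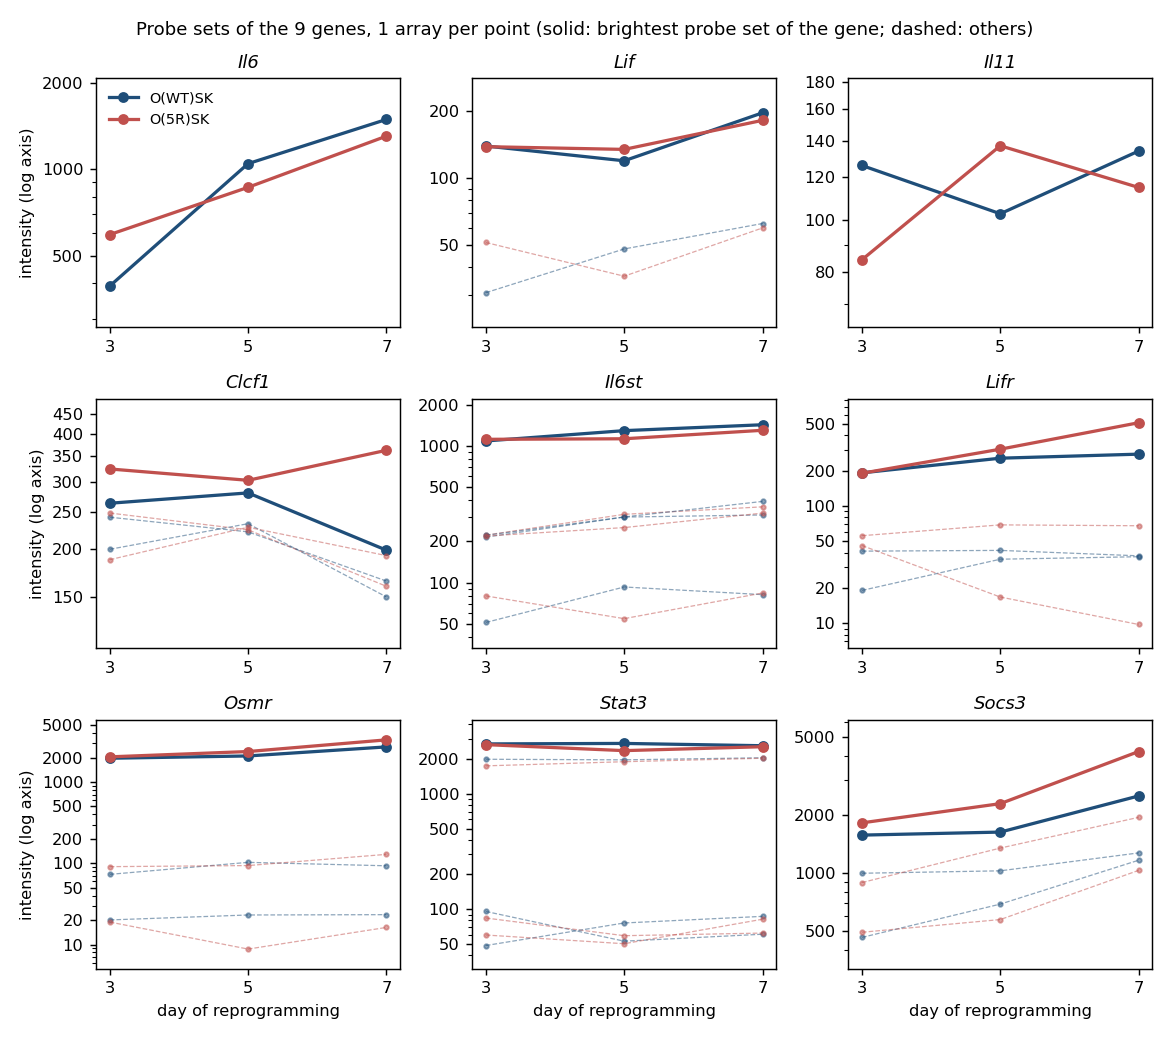
Intensity (log axis) against day of reprogramming for all 24 probe sets of the 9 genes, with 1 array per point, WT in blue and 5R in red; solid lines are the brightest probe set of a gene and dashed lines the others. Il6 goes from 392 and 592 on day 3 to 1492 and 1305 on day 7, and Socs3 reaches 2496 with WT and 4231 with 5R.

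Each of the 4 arrays of days 3 and 7 was needed for these calls. With any of the 4 left out, limma called 0 of the 9 genes and 0 of all 12622 genes, while 3 to 6 of the 9 and 2619 to 3288 of all genes had an unadjusted p under 0.05. Without the filter on low values limma also called 0 of 18193 genes (3648 at an unadjusted p under 0.05, 5 of the 9 among them). When each array was given the same median, the median gene moved from 0.03 to -0.07 and the split of all calls from 823 higher and 464 lower to 579 and 593.

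The promoters of the 3 genes that rose are shown because their letters can be set beside the course of each gene. They run 5′ to 3′ from 250 bases before to 20 bases after the start of the transcript, from RefSeq on GRCm38.p6. Capitals mark matches to any of 4 motifs searched on both strands: the STAT motif TTCNNNGAA, its variant with 4 bases between TTC and GAA, the AP-1 motif TGANTCA and the NF-kB motif made of GGG, any 2 bases and TTTCC. The STAT and AP-1 letters read the same on both strands. Il6 lies at chr5:30012864-30013133 on the plus strand, Osmr at chr15:6874294-6874563 and Socs3 at chr11:117969347-117969616, both on the minus strand.
Il6: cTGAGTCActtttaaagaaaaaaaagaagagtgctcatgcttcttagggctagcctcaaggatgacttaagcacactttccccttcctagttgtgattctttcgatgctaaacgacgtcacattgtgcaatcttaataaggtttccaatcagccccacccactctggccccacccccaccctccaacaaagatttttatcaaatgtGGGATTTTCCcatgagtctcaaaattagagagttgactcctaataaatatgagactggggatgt
Osmr: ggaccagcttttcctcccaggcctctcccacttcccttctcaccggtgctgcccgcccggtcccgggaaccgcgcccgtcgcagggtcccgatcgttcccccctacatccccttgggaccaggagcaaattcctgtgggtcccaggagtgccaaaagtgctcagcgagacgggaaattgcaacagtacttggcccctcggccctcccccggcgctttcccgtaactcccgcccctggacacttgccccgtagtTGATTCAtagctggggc
Socs3: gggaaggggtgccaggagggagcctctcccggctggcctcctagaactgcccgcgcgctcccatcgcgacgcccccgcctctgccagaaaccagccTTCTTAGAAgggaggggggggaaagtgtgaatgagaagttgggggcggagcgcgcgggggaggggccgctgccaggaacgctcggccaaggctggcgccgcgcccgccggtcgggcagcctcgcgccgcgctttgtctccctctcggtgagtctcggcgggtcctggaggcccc
The Socs3 promoter holds the STAT letters TTCTTAGAA at positions -154 to -146 from the start, and 8.3% of 32851 promoters of 300 bases hold that motif. The Il6 promoter holds the AP-1 letters TGAGTCA at -249 to -243 and the NF-kB letters GGGATTTTCC at -44 to -35, motifs found in 7.81% and 1.63% of promoters. In the Osmr window the AP-1 letters TGATTCA stand just after the start, at 4 to 10. The table gave 10 promoters for 8 of the 9 genes. In the others, AP-1 letters stand at -228 to -222 for Lif and at -98 to -92 in 1 Il11 promoter, the other Il11 promoter holds the 4-base variant across the start (6.95% of promoters), and the windows of Il6st, Lifr and Stat3 hold none of the 4 motifs. Base composition separates these promoters as well: over 300 bases the Il6 promoter is 44% G and C with 3 CpG dinucleotides, below the lower quartile of all promoters (45.7%), while those of Osmr (66%, 22 CpG) and Socs3 (73.3%, 31 CpG) lie above the upper quartile (61.7%). A match of letters is a description and not a binding site.

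Among the ligands, Il6 was the gene that rose, and the others did not pass the test. Il6 encodes interleukin-6, which acts through its own receptor chain and gp130. Its only probe set, 1450297_at, read 392, 1047 and 1492 on days 3, 5 and 7 with WT and 592, 865 and 1305 with 5R. The 3 days did not overlap: the lowest day 5 value exceeded the higher day 3 value, and the lowest day 7 value exceeded the higher day 5 value. The day 7 minus day 3 difference was 1.50 (SE 0.237, limma adjusted p = 0.0324). Leaving out the WT or 5R array of day 3 or of day 7 ended the call, with differences from 1.10 to 1.91 and adjusted p from 0.0763 to 0.145, as did dropping the filter (0.107) or fitting every probe set on its own (0.0604). By day 5 the difference from day 3 was 0.96, which missed the threshold (adjusted p = 0.184). Within combinations, which have 1 array per day and no test, Il6 went up 3.70-fold with WT and 2.17-fold with 5R. The summed macrophage markers went from 11951 to 12442 on day 3 to 5114 to 5487 on day 7. Lyz2 was the largest part of them (6294 with WT and 5824 with 5R on day 3). Of the 15 tested, only 1, Laptm5, had a positive difference (0.33). Any macrophage part in the Il6 values was not tested.

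Lif, the gene of the cytokine that was also added to the medium, changed less. Its probe set 1421207_at read 140, 120 and 197 with WT and 139, 135 and 182 with 5R. Both day 7 arrays lay above the other 4, and the day 3 and day 5 values were close together. The difference of day 7 from day 3 was 0.40 (SE 0.111, adjusted p = 0.0927) and that from day 5 was 0.52 (adjusted p = 0.214), neither past the threshold, though the first passed with the stricter filter (adjusted p = 0.0389). The second Lif probe set, 1450160_at, was dim, at 30.7, 48.2 and 62.7 with WT and 51.6, 36.4 and 59.9 with 5R, and its difference was 0.46.

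Il11 encodes interleukin-11, another gp130 ligand. Its probe set 1449982_at read 126, 103 and 134 with WT and 84.4, 137 and 115 with 5R. The days overlapped, and the middle day was the lowest with WT and the highest with 5R. The difference of day 7 from day 3 was 0.23, with a 95% interval from -0.36 to 0.83.

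Clcf1 encodes cardiotrophin-like cytokine factor 1, which signals through gp130 and the LIF receptor. Its brightest probe set, 1437270_a_at, read 264, 281 and 199 with WT and 324, 303 and 363 with 5R, so that the combinations parted on day 7. A different pattern came from 1437271_at, which read 243, 222 and 165 against 249, 225 and 160. On that probe set both combinations went down together, by a log2 difference of -0.55 (limma over 27002 probe sets, adjusted p = 0.0817), against -0.11 for the brightest. The third, 1450262_at, gave -0.17, with 200, 233 and 150 against 188, 229 and 193. The 3 Clcf1 probe sets thus disagree on whether the OCT4 versions differ on day 7.

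Of the receptor genes, Osmr rose and the values of Lifr and Il6st were higher on day 7 without passing the test. Osmr encodes the oncostatin M receptor, which pairs with gp130. Its probe set 1418674_at read 1962, 2094 and 2707 with WT and 2041, 2373 and 3303 with 5R. No day overlapped another, and the step from day 5 to day 7 was the larger in both combinations. The day 7 minus day 3 difference was 0.58 (SE 0.107, adjusted p = 0.0441). Without a day 3 or day 7 array, or without the filter, limma called none of all genes, so every call was lost there. With those alternatives counted, the Osmr call was lost under the most of the 3, 11 of 15, against 7 for Socs3 and 6 for Il6. Leaving out any 1 of the 6 arrays ended it, with differences from 0.49 to 0.66 and adjusted p from 0.0740 to 0.204, and so did a common median (adjusted p = 0.0679), a pseudocount of 1 (0.0569), no filter (0.135), every probe set on its own (0.0878) and the mean of the gene's probe sets, which gave 0.32 (0.205). Of its other probe sets, 1418675_at gave 0.37, and 1459217_at, between 8.79 and 23.3 on all arrays, did not pass the filter.

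Lifr encodes the LIF receptor, the partner of gp130 for LIF. Its probe set 1454984_at read 191, 255 and 276 with WT and 190, 305 and 512 with 5R. The combinations were level on day 3, and the 5R day 7 value was the highest of the 6. The difference of day 7 from day 3 was 0.93 (SE 0.227, 1.90-fold, adjusted p = 0.0739), which missed the threshold, and it passed with a pseudocount of 64 (adjusted p = 0.0343), a stricter filter (0.0205) and a trended, robust prior (0.00814). The other tested probe set, 1425107_a_at, did not show this course. It read 41.1, 41.7 and 37.5 with WT and 55.7, 68.9 and 67.7 with 5R, a difference of 0.06 between days 7 and 3, and it was higher with 5R on every day, by a mean of 0.51 (unadjusted p = 0.00694, adjusted p = 0.503). The mean of all 3 Lifr probe sets, which includes the dim 1450207_at below the filter, gave 0.22.

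Il6st encodes gp130, the chain shared by the whole family. Its probe set 1452843_at read 1087, 1293 and 1428 with WT and 1117, 1128 and 1301 with 5R. The days did not overlap, though the 5R values of days 3 and 5 were almost equal. The difference of day 7 from day 3 was 0.30 (SE 0.109, adjusted p = 0.151), which passed with the trended, robust prior (adjusted p = 0.0430), and the other 3 probe sets gave 0.58, 0.65 and 0.30. All 4 Il6st probe sets thus read higher on day 7 than on day 3, and none passed in limma over all probe sets.

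Stat3, the transcription factor gene of the pathway, showed no course that passed the test. Its probe set 1426587_a_at read 2698, 2726 and 2603 with WT and 2661, 2361 and 2552 with 5R. The days overlapped, and the lowest value was that of 5R on day 5. The difference of day 7 from day 3 was -0.06, with a 95% interval from -0.33 to 0.22 (adjusted p = 0.758). On 1460700_at, which read 1988, 1965 and 2048 against 1743, 1893 and 2029, it was 0.13. The remaining Stat3 probe sets, which read between 48.5 and 95.7, went opposite ways, with -0.45 on 1459961_a_at and 0.52 on 1424272_at. Transcript levels say nothing of the phosphorylation of the protein, which was not measured.

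Socs3, the feedback inhibitor gene and a direct target of STAT3, read higher on day 7 than on day 3 on all 3 of its probe sets. The brightest, 1455899_x_at, read 1567, 1625 and 2496 with WT and 1813, 2278 and 4231 with 5R. Both day 7 arrays lay above the other 4, and 5R was the higher on every day. The difference of day 7 from day 3 was 0.94 (SE 0.158, adjusted p = 0.0360). Leaving out the WT or 5R array of day 3 or of day 7 ended the call, with differences from 0.73 to 1.15 and adjusted p from 0.0907 to 0.153. It was also lost with a pseudocount of 1 (adjusted p = 0.0518), without the filter (0.116) and with every probe set fitted on its own (0.0692). Most of the difference fell between days 5 and 7, at 0.75, against 0.19 between days 3 and 5, and neither step passed the test on its own.

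The second Socs3 probe set, 1456212_x_at, read 996, 1025 and 1268 with WT and 892, 1344 and 1936 with 5R. The third, 1416576_at, read 465, 690 and 1163 against 494, 575 and 1031. On this last probe set the combinations stayed close on every day, and day 7 was the highest in both. Its difference of day 7 from day 3 was 1.17 (2.24-fold, adjusted p = 0.0397), which made it the single one of the 22 tested probe sets past the threshold when limma was fitted over all 27002 probe sets, of which 1.65% rose and 0.781% fell. Of the 22, 16 read higher on day 7 than on day 3 in both combinations, as did 36.3% of all probe sets tested. In Affymetrix names the ending _x_at marks a probe set whose probes may also bind other transcripts, and whether this bears on the values was not tested.

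**Figure D2:**
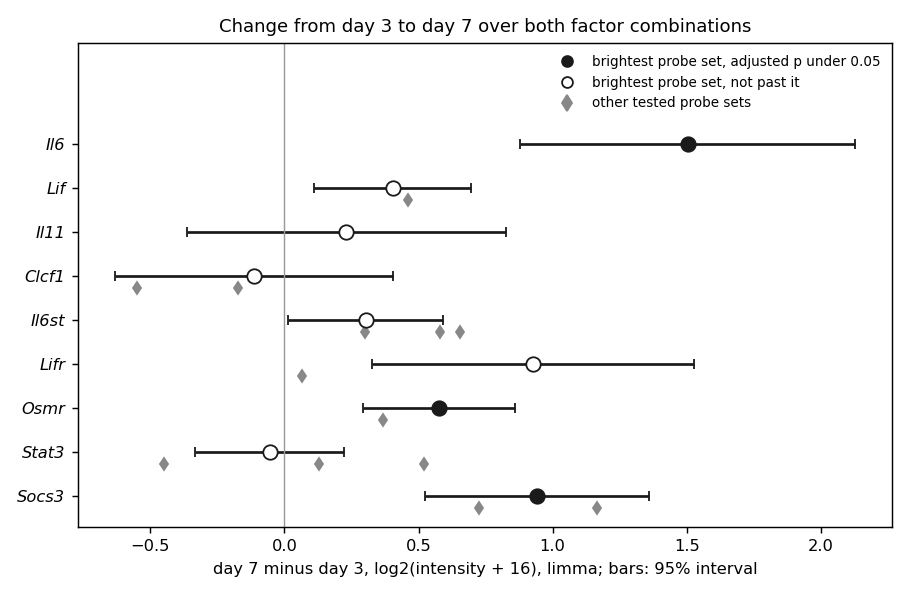
Log2 difference of day 7 from day 3 over both combinations for the 9 genes, from limma on log2(intensity + 16); circles with 95% intervals are the brightest probe sets, filled where the adjusted p was under 0.05, and grey diamonds are the other tested probe sets. Il6 (1.50), Osmr (0.58) and Socs3 (0.94) are filled, and the probe sets of Clcf1, Lifr and Stat3 scatter.

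Matched by day, 5R against WT asks whether the OCT4 version alters these genes. None of the 9 passed the test, and limma called 0 of 12622 genes (1180 at an unadjusted p under 0.05, 1 of the 9 among them). The median difference was 0.04 for the 9 genes and -0.01 for all genes. 5R read higher on all 3 days for Clcf1, Osmr and Socs3, as it did for 15.9% of all genes, and lower on all 3 days for Stat3, as it did for 17.9%.

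By brightest probe sets, Socs3 had the largest difference of the 9. A dimmer Lifr probe set, 1425107_a_at, had a larger mean of 0.51 (limma over all probe sets, adjusted p = 0.503). It read 0.33, 0.56 and 0.65 higher with 5R on days 3, 5 and 7. The brightest Socs3 probe set read 0.21, 0.48 and 0.76 higher with 5R on those days, a mean of 0.48 (SE 0.129, adjusted p = 0.436). The Socs3 probe sets did not bear each other out: 1456212_x_at gave -0.16, 0.38 and 0.60, and 1416576_at gave 0.09, -0.26 and -0.17. For Clcf1 the differences were 0.28, 0.10 and 0.82 on the brightest probe set (mean 0.40, SE 0.160, adjusted p = 0.543), and the means on its other probe sets were 0.00 and 0.07. For Osmr they were 0.06, 0.18 and 0.29 (mean 0.17, 95% interval -0.06 to 0.41). By their brightest probe sets, none of the 9 genes was 2-fold apart on any day, and of the other probe sets only the dim Lifr 1450207_at was, on day 7 (-1.04). Of all genes, 0.689%, 0.998% and 1.73% were at least 2-fold higher with 5R on days 3, 5 and 7, and 0.634%, 0.681% and 0.388% at least 2-fold lower.

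Il6 changed sides between days. It read 0.58 higher with 5R on day 3 and then 0.27 and 0.19 lower on days 5 and 7, which gave a mean of 0.04 with a 95% interval from -0.47 to 0.55. For day 3 this is the 5R array with the high dap and thr values, and without that day the mean was -0.23. For Stat3 the mean was -0.08 (95% interval -0.31 to 0.14), for Lif 0.01 (-0.23 to 0.25) and for Il6st -0.10 (-0.33 to 0.14).

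**Figure D3:**
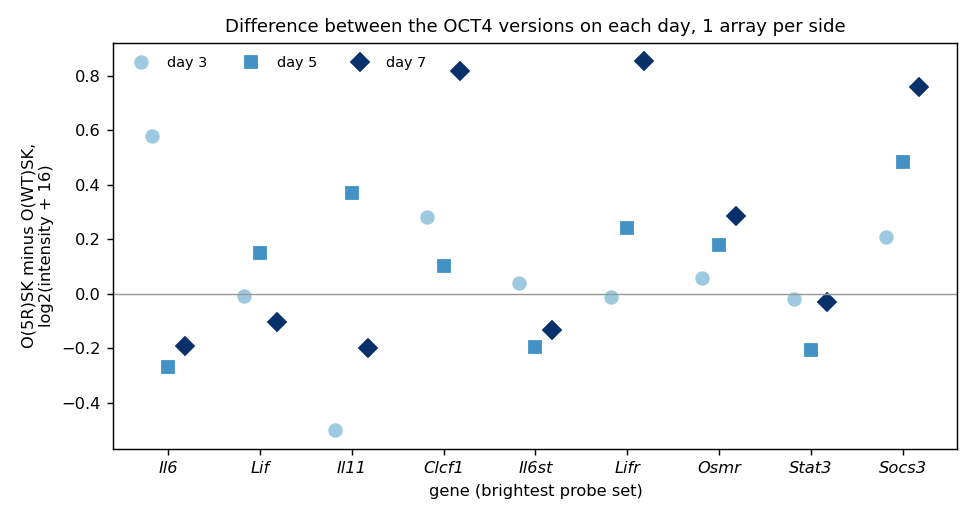
Difference of 5R from WT in log2(intensity + 16) on days 3, 5 and 7 for the brightest probe set of each of the 9 genes, with 1 array on each side of every point. Clcf1 (0.82), Lifr (0.85) and Socs3 (0.76) stand highest on day 7, and Il6 goes from 0.58 on day 3 to -0.27 and -0.19.

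Lifr parted between the combinations with time. Its brightest probe set was level on day 3 (-0.01) and 0.24 and 0.85 higher with 5R on days 5 and 7. Over 4 days the slopes differed by 0.86 (SE 0.200, 95% interval 0.32 to 1.41), with an unadjusted p of 0.0112 in limma and an adjusted p of 0.647. The mean of all 3 Lifr probe sets, 1450207_at below the filter among them, gave -0.23, while the 2 tested probe sets gave 0.86 and 0.32. limma called 0 of 12622 genes for a difference of slopes, and 949 had an unadjusted p under 0.05, of the 9 genes Lifr alone. The course of Socs3 differed by 0.55 (95% interval -0.42 to 1.52) and that of Il6 by -0.77 (-1.82 to 0.28). On day 7 the 5R value comes from the array set apart by its quality values, whose median intensity was 68.0 (at most 61.4 elsewhere). With a common median the slopes differed by 0.74 for Lifr, 0.42 for Socs3 and -0.90 for Il6. The summed pluripotent markers, mostly L1td1, were likewise highest in the 5R day 7 array, and their part in the values of Lifr and Socs3 was not tested.

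Over the 6 arrays, Osmr and Socs3 had the highest correlation among the 9 genes, with Pearson r = 0.979 of log2 values. Lifr followed, with 0.927 to Osmr and 0.925 to Socs3, and Il6 correlated with Il6st at 0.902. Stat3 had an r of 0.106 with Il6st and values below 0 with the other 7. These points share the same arrays and the same course of days, so they describe the 6 arrays only. Each gene entered by its brightest probe set, which was 1455899_x_at for Socs3 and 1437270_a_at for Clcf1. The other probe sets of Socs3 and Clcf1 differed from these in how the combinations compared, and their correlations were not computed. The values for Socs3 and Clcf1 therefore hold for those brightest probe sets only. Among all genes tested, those most like Il6 were Ccndbp1 (0.999), Slc37a2 (0.995) and Mustn1 (0.995), and those most like Lifr were Armt1 (0.998), Copg2 (0.995) and C1qtnf3 (0.994). Osmr was followed most closely by Pde4d (1.00, which encodes a cAMP phosphodiesterase), Zyg11b (0.998) and Snx1 (0.996), and Socs3 by Kat5 (0.995), Glul (0.993, the glutamine synthetase gene) and Hspa2 (0.993). For Il6st they were Tmbim6 (0.995), Rnf40 (0.994) and Arrdc4 (0.994), and for Clcf1 they were Tnfaip6 (0.992), Celf2 (0.991) and Cd44 (0.989), the gene of a hyaluronan receptor. Lif came with 1810044D09Rik (0.993), Ces2g (0.992) and Efs (0.986), Il11 with Rtkn2 (0.983), Atp5md (0.976) and Ksr1 (0.969), and Stat3 with Riok1 (0.975), Hif3a (0.964) and Zc3h12a (0.964). All these values were the highest among 12622 genes over only 6 points.

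Beyond the 9 genes, the pathway lists name 91 others, 79 of them on the array and 65 tested. Between days 3 and 7, 9 of the 65 rose and 2 fell, with a median of 0.11, beside 6.52% and 3.68% of all genes and a median of 0.03. Among those that rose, Stat2 and Lbp lay below the filter intensity of 33.5 on both day 3 arrays. Tfcp2l1 lay below it on the WT arrays of days 3 and 5. These genes passed the filter through arrays where they were high, so the count is no measure of an excess over that share. None of the 65 passed for the OCT4 version (6 at an unadjusted p under 0.05), and limma called 0 of all genes there. As with the 9 genes, all these calls were lost when any array of day 3 or day 7 was left out.

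Other ligands and receptors added 1 call. Of 6 ligands tested only Il6 passed, and Osm, the ligand gene of the oncostatin M receptor, was dim on every array, between 30.3 and 69.5. Of 5 receptors tested, Osmr and Il6ra rose. Il6ra encodes the receptor chain specific to interleukin-6, and it read 385, 540 and 664 with WT and 354, 456 and 527 with 5R. Its days did not overlap, with a difference of 0.66 (SE 0.105, 1.58-fold, adjusted p = 0.0331). Cntfr, the receptor gene for ciliary neurotrophic factor, had the opposite sign, at -0.77, and missed the threshold (adjusted p = 0.0924).

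Of 9 JAK and STAT genes tested, Stat2, a transcription factor gene of interferon signalling, was the only one to rise. On day 3 it lay below the filter intensity of 33.5, at 32.0 and 17.7, and it passed the filter through the later days. It read 60.8 and 61.1 with WT and 56.4 and 59.7 with 5R on days 5 and 7, a difference of 0.93 (adjusted p = 0.0353). Jak2, a kinase gene of the gp130 complex, read 952, 991 and 1320 against 1002, 1234 and 1493, with a difference of 0.52 just outside the threshold (adjusted p = 0.0555). Of 16 signal inhibitors, Socs3 and Socs5 rose and none fell, with a median of 0.06. Socs5 read 1813, 1989 and 2539 against 1693, 1823 and 2746, a difference of 0.59 (adjusted p = 0.0453). Its relatives Socs2 (0.45, adjusted p = 0.0556) and Socs1 (-0.51, adjusted p = 0.101) did not pass. Of 11 genes of the MAP kinase branch, which gp130 also feeds, 0 passed in limma. The adaptor genes Gab1 (0.70, adjusted p = 0.0783) and Grb2 (-0.19) had the largest values there.

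Of 30 listed inflammatory and acute phase targets, 29 are on the array and 25 were tested. Lcn2, Hp, Serpina3n, Serpina3g and Lrg1 lay below the filter or were not on the array. Of the 25 tested, 7 rose and 1 fell, with a median of 0.25. Osmr and Socs3 are among the 7. The largest fitted differences were those of 3 acute phase genes: Lbp, which encodes a lipopolysaccharide-binding protein (3.09, adjusted p = 0.00765), the ceruloplasmin gene Cp (1.93) and the serum amyloid gene Saa3 (1.73). Lbp read 20.2, 47.1 and 275 with WT and 29.7, 80.3 and 398 with 5R. Both its day 3 values lie below the filter intensity of 33.5, so that it passed the filter through the later days and the size of its difference is uncertain. Saa3 read 177, 140 and 462 with WT and 113, 120 and 558 with 5R, so that its day 7 values stood clear of the other 4. Cp read 89.7, 169 and 358 against 89.9, 200 and 418, with no overlap of days. The adhesion molecule gene Icam1 (0.62) and the interleukin-4 receptor gene Il4ra (0.60) also rose, and Gadd45g, a growth arrest gene, fell by 0.62. Immediate early targets such as Fos (-0.20), Junb (0.20) and Myc (-0.34) did not pass.

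Of 15 listed targets of LIF and STAT3 in naive pluripotency, 10 were tested, and 5, Nanog, Zfp42, Gbx2, Sall4 and Dppa3, lay below the filter. Socs3 and Tfcp2l1, a naive pluripotency factor gene, rose and the Kruppel-like factor gene Klf5 fell. Tfcp2l1 read 2.68, 4.95 and 87.7 with WT and 54.8, 56.7 and 276 with 5R. Its WT values of days 3 and 5 lie far below the filter intensity, so it passed the filter through the other 4 arrays and the size of its difference (2.26) is uncertain. Klf5 read 720, 392 and 361 with WT and 622, 448 and 381 with 5R (-0.82, adjusted p = 0.0334), with both day 3 arrays above the rest. Esrrb, a nuclear receptor gene of naive cells, was dim, from 34.8 to 89.1, and Tbx3 (0.01) and Klf4 (0.22) did not pass. The probe set of Klf4 may also see the delivered factor, which was not tested. Of all 7 lists, none held a gene past the threshold for the OCT4 version in limma, and the largest values there were 1.74 for Tfcp2l1 (adjusted p = 0.107), whose WT values of days 3 and 5 are below the filter, and 0.48 each for Socs3, Lbp (adjusted p = 0.347) and Spry4 (adjusted p = 0.411).

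**Figure D4:**
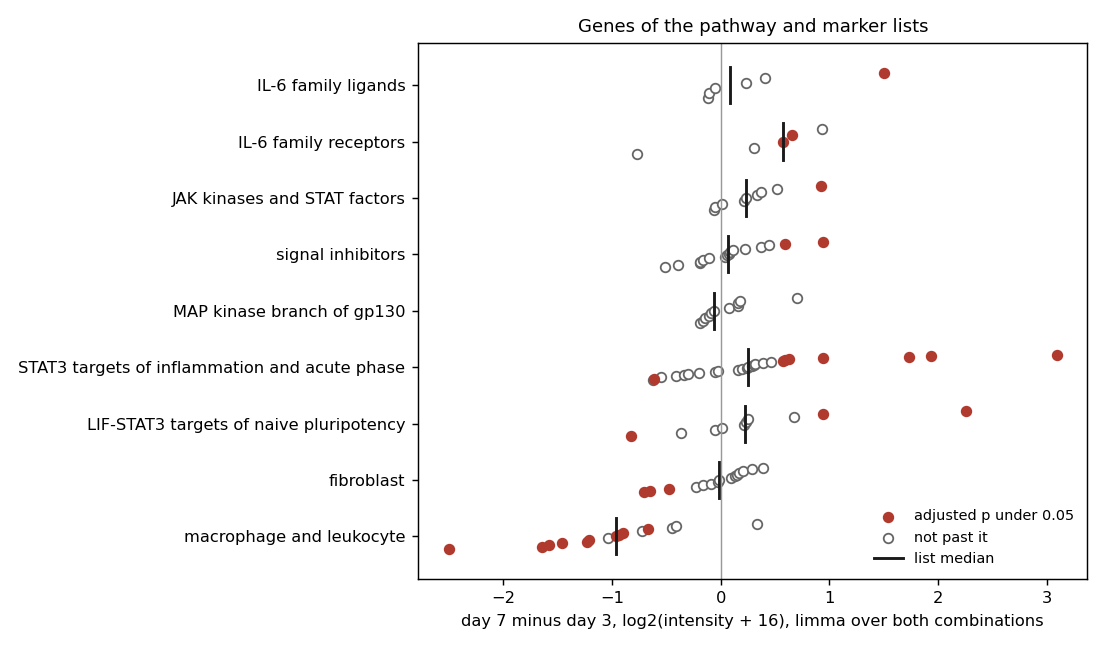
Log2 difference of day 7 from day 3 over both combinations for the tested genes of the 7 pathway lists and of the fibroblast and macrophage marker lists, with 1 point per gene, filled where limma's adjusted p was under 0.05, and a bar at each list's median. The inflammatory and acute phase targets reach 3.09 (Lbp), and the macrophage markers lie on the other side, with a median of -0.96.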

How the data were processed

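Mouse transcripts were measured on 6 arrays, whose combination and day come from the labels. The authors deposited linear intensities, 1 for each array and probe set. The submitters' processing notes name affy as their tool. Its version and the steps run in it (background, summary) are not stated in any source used here. Genes were named from the annotation of the platform: 34945 probe sets name 1 gene, 932 several and 9211 none. The 64 control probe sets overlap only in part with the 9211. All 9 genes were matched to RefSeq. Of the table's value columns 0 were left unused. A gene's brightest probe set was taken (18193 genes) as log2(intensity + 16). The filter kept the 12622 genes with a mean over log2 5.63, the 40th percentile of the probe sets.

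Tests used lmFit and eBayes from limma 3.58.1, under R 4.3.3 with version 1.17.8 of data.table. All 6 arrays entered 1 fit with combination and day as terms, which left 2 residual degrees of freedom and a prior of 2.6. Slopes were compared in a separate fit, with day as a number and its interaction with combination. Within-combination and single-day differences have no test. In the fit with combination and day as terms, the 2 combinations stood in for replicates. Its residual spread is how far their courses over the days differ. Array noise and an effect of the OCT4 version on the course cannot be told apart there. The number of arrays limits the precision, and nothing says that arrays came from separate cultures. The p-values thus reflect no more than the spread of these 6 arrays, part of which may be technical. The fits were tested on simulated data. Figures were drawn with matplotlib 3.10.9 (pandas 2.3.3, Python 3.11.15).

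The 9 genes, the pathway and marker lists and the tests were chosen with earlier results of these data known. Named were all 9 genes, from each pathway list at most 4 genes past the threshold with the largest difference (or, with fewer than 2 past it, the 2 largest), and for each of the 9 genes the 3 genes most correlated with it. Other list genes, among them Osm, Cntfr, Socs1, Socs2, Icam1, Il4ra and Gadd45g, were named after their values were seen. Alternatives tried were other pseudocounts, filters, scalings, probe set rules and priors, and leaving out each array.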

Additional observations from a re-analysis of the deposited data

Results flagged for a closer look

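On 2 dim probe sets below the filter, the combinations went opposite ways from day 3. Lifr 1450207_at read 19.0, 35.1 and 36.9 on days 3, 5 and 7 with WT, log2 differences from day 3 of 0.55 and 0.59, and 45.9, 16.7 and 9.74 with 5R, differences of -0.92 and -1.27. Osmr 1459217_at read 20.1, 23.1 and 23.3 with WT (0.12 and 0.12) and 18.9, 8.79 and 16.2 with 5R (-0.49 and -0.12). The differences between the combinations were not tested, each value rests on 1 array, and the brighter probe sets of Lifr and Osmr did not go opposite ways.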

How the results depend on the processing

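Against the 3 of 9 genes that rose from day 3 to day 7 in limma, 1 rose with a pseudocount of 1 and 0 without the filter. With every probe set fitted on its own, 0 rose by their brightest probe sets, though the dimmer Socs3 1416576_at passed (limma adjusted p = 0.0397). The count was 5 with the stricter filter at the 60th percentile (8 of the 9 tested, Lif and Lifr added). It was also 5 with a trended, robust prior (Il6st and Lifr added). Leaving out 1 array gave 0 to 2. The trended, robust prior also called 1 gene (Il6) between days 3 and 5 and 2 (Osmr and Socs3) between days 5 and 7, where there were otherwise 0 of the 9. Over all genes, days 3 to 5 gave 346 higher and 299 lower with that prior, 246 and 172 with the stricter filter and 115 and 98 with a pseudocount of 64, and days 5 to 7 gave 245 and 122, 123 and 45, and 71 and 23. The slopes gave 2 and 0 with that prior. For day 7 against day 3 the 823 higher and 464 lower calls became 1194 and 777 with a pseudocount of 64 and 1247 and 955 with the stricter filter. They became 1570 and 1276 with the trended prior and 0 without the filter. With every probe set on its own they became 284 and 139 among the brightest probe sets, and 446 and 211 among all 27002. Between the OCT4 versions, where limma called 0, the genes called higher and lower were 65 and 17 with the trended prior, 26 and 1 with the stricter filter and 2 and 0 with a pseudocount of 64. No alternative called any of the 9 genes lower on day 7 or different between the OCT4 versions. Directions turned only for values that had not passed. For day 7 against day 3 these were Stat3 (0.037 with the mean of probe sets) and, with 1 array left out, Il11 (-0.062 to 0.52, the lowest without 5R day 3) and Clcf1 (-0.42 to 0.20, the highest without WT day 7). For 5R against WT they were Lif after quantile normalization (-0.019) or with a common median (-0.022), and, with 1 array left out, Il6 (-0.23 to 0.19, the lowest without either day 3 array), Lif (-0.056 to 0.071, the lowest without either day 5 array) and Il11 (-0.35 to 0.085, the highest without either day 3 array). The slopes were followed gene by gene for Lifr, Il6, Socs3 and Clcf1 only, and each of these turned in some setting. They were Lifr (-0.23 with the mean of probe sets) and, with 1 array left out, Il6 (-1.64 to 0.11, the highest without WT day 3), Socs3 (-0.013 to 1.11, below 0 without WT day 3 or 5R day 7) and Clcf1 (-0.015 to 1.08, the lowest without WT day 7). The causes were not tested. The labels give no replicate numbers to pair arrays by, and 5R and WT were matched by day, as a term of the fit. Signals near the filter intensity of 33.5, such as those of the dimmer Lif, Lifr, Osmr and Stat3 probe sets, limit what can be read from them.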
